A study of Homo sapiens with 12 samples.

Results

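The HSP70 family chaperones described here are 10 genes taken by their symbols from a table of 19517 genes: HSPA1A, HSPA1B, HSPA1L, HSPA2, HSPA4, HSPA4L, HSPA6, HSPA8, HSPA9 and HSPA14. All 10 had enough reads to be among the 14133 genes tested. They were chosen by family, with the fold changes of extract against control in both cell lines already known, because the inducible members moved in opposite directions in the lines. The members' values for those contrasts, and for the difference between them, are therefore given as a description without p-values. Where a member is said to be called at the threshold in them, this describes the fit and is not used as a test.

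The libraries come from MDA-MB-231 and HCC1937, human breast cancer lines of the triple-negative type, exposed or not to a water extract of the succulent Kalanchoe pinnata. Extract-treated MDA-MB-231 (libraries E7, E8 and E9) had 140 µg/mL in DMEM, with E1, E2 and E3 as controls. Extract-treated HCC1937 (E31, E32 and E33) had 66 µg/mL in RPMI, with E25, E26 and E27 as controls. Treatment lasted 72 h, both lines are labelled WT and grew in serum with antibiotics, and nothing in the labels says whether controls received a vehicle or whether the 3 libraries of a group were separate cultures. The p-values below therefore rest on the spread among libraries, which can be purely technical. Line, medium and concentration differ together and cannot be told apart.

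Library totals ran from 16170342 to 31337259 counts, and 3 counts in a library amount to between 0.0990 and 0.213 CPM, the unit used here for counts brought to one library size. E7 stood apart from its replicates: mitochondrially encoded genes took 10.7% of its counts, against 4.63% in E8 and 4.78% in E9. Log2 fold changes of extract over control in MDA-MB-231 are therefore also given without E7. Differences of the extract effect between the lines rest on that group too, but most are given with E7 only. Epithelial markers (EPCAM, CDH1, KRT8, KRT18 and KRT19) were all detected in HCC1937, whereas CDH1, the epithelial cadherin, had no reads in MDA-MB-231, which is labelled as epithelial as well. Their summed level was 1499 to 2625 CPM in extract and 730 to 777 CPM in control libraries of MDA-MB-231, and 10146 to 10285 CPM in extract and 3874 to 4001 CPM in control libraries of HCC1937. KRT8 and KRT18 made up most of these sums, so the sums do not speak for each marker. In HCC1937 KRT8, KRT18 and KRT19 averaged higher with extract. EPCAM (94.5 against 173 CPM) and CDH1 (120 against 186 CPM) averaged lower there. Leukocyte markers summed to at most 7.35 CPM, fibroblast markers to at most 22.5 CPM and endothelial markers to at most 24.5 CPM in any library.

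HSP70 proteins bind exposed hydrophobic stretches of unfolded polypeptides and release them in a cycle of ATP binding and hydrolysis. J-domain proteins bring clients and start hydrolysis, and nucleotide exchange factors reset the cycle. HSPA8 is the constitutive cytosolic form. HSPA1A, HSPA1B and HSPA6 are the stress-inducible forms, switched on by the transcription factor HSF1, which binds inverted repeats of a short GAA-containing unit. In tumour cells, cytosolic HSP70 is known to protect against cell death and to hold many signalling proteins together with HSP90.

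The promoters of the 4 cytosolic members that the results turn on are shown first, because the position of such repeats is the sequence feature they can be compared by. Each line is the RefSeq sequence (GRCh38.p14) from 250 bases before to 50 after the transcript start that the RefSeq table uses, read 5′ to 3′ on the gene's strand: HSPA1A at chr6:31815293-31815592 (plus), HSPA1B at chr6:31827488-31827787 (plus), HSPA6 at chr1:161524290-161524589 (plus) and HSPA8 at chr11:123062087-123062386 (minus). That start coincides with the first base of the GENCODE gene for HSPA6 and lies 3 bases inside it for HSPA1B and 79 for HSPA1A. For HSPA8 it lies 1094 bases inside, where 4 of its 24 GENCODE transcripts begin, so positions below count from this start only. Capitals mark the letters matching GAANNTTC or TTCNNGAA, with overlapping matches joined. Both motifs read the same on both strands.
HSPA1A: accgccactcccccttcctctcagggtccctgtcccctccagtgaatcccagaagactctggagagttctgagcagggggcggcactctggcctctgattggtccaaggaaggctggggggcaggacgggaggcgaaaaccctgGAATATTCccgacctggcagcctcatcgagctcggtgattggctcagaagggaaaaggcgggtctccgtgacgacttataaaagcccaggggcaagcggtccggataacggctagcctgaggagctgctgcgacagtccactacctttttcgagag
HSPA1B: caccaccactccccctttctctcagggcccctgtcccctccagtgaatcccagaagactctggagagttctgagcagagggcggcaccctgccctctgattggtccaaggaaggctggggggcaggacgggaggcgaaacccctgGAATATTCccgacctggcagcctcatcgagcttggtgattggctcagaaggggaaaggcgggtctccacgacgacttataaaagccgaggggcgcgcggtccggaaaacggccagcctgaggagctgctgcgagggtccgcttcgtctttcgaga
HSPA6: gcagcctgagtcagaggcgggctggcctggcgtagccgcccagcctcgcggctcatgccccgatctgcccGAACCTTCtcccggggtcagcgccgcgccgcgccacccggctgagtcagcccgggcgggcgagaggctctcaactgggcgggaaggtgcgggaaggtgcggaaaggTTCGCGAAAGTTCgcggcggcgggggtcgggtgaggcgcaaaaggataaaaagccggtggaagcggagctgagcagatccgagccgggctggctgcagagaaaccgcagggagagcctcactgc
HSPA8: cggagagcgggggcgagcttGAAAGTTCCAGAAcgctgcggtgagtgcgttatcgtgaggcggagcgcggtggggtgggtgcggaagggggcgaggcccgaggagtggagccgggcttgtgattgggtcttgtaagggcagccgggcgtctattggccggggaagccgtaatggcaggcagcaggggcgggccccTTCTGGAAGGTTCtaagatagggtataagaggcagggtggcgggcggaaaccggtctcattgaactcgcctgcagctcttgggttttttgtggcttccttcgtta

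HSPA1A and HSPA1B each had 1 match, the same letters at 106 and 105 bases before the start. HSPA6 had 3 matches, with a TTCNNGAA and a GAANNTTC overlapping by 3 bases into a longer run from 74 bases before the start. HSPA8 had 4 matches that form such an overlapping run at 2 places, 230 and 55 bases before the start. Either of the short motifs occurred in 13.5% of 35116 RefSeq promoters of the same length, and a longer run of both, in either order and overlapping by 3 bases, in 0.490%. Entries were found for 9 of the 10 members, all but HSPA14. HSPA1L had 1 match, the same 8 genomic bases as the match of HSPA1A read from the other strand (chr6:31815437-31815444), HSPA9 had 1 match 4 bases before its start, HSPA4L had 1 in 1 of its 3 listed promoters, and HSPA2 and HSPA4 had none. A match is a string of letters and not a measured binding site.

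HSPA1A (chr6:31815464-31817946, GRCh38) and HSPA1B (chr6:31827735-31830255) lie side by side on the plus strand, each with 1 exon. Their coding sequences are both 1926 bases long and differ at 4 positions, an identity of 99.8%. Of all stretches of 31 bases in the transcript, 74.3% of those in HSPA1A also occur in HSPA1B and 73.1% the other way round. Of the 631 stretches of HSPA1A that its copy lacks, 84 lie within the coding sequence and 547 reach outside it. The stretch below shows how little sets the coding sequences apart: coding bases 1853 to 1912, at chr6:31817609-31817668 in HSPA1A and chr6:31829803-31829862 in HSPA1B, with the 2 differing bases in capitals.
HSPA1A coding stretch: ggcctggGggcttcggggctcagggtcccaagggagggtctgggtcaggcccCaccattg
HSPA1B coding stretch: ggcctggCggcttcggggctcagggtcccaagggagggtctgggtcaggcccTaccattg

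Reads from the shared stretches were divided between both genes by the estimation that made the counts, so the sum of the pair is used below wherever a level matters. HSPA6 (chr1:161524540-161526910) likewise shares 56.6% of its stretches of 31 bases with the pseudogene HSPA7, and its value may hold reads of that copy.

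The family as a whole was scarcer with extract in MDA-MB-231 and more abundant with extract in HCC1937. The 10 genes together took 0.175%, 0.236% and 0.238% of counts in MDA-MB-231 extract libraries E7, E8 and E9, against 1.124%, 1.126% and 1.114% in control libraries E1, E2 and E3. They took 0.431%, 0.436% and 0.435% in HCC1937 extract libraries, against 0.215%, 0.211% and 0.217% in its controls. No extract library overlapped the controls of its line. The order of the lines was turned: the family total was 2303 to 2409 CPM in extract-treated and 9947 to 10055 CPM in control MDA-MB-231, and 5084 to 5140 CPM in extract-treated and 1827 to 1869 CPM in control HCC1937.

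**Figure D1:**
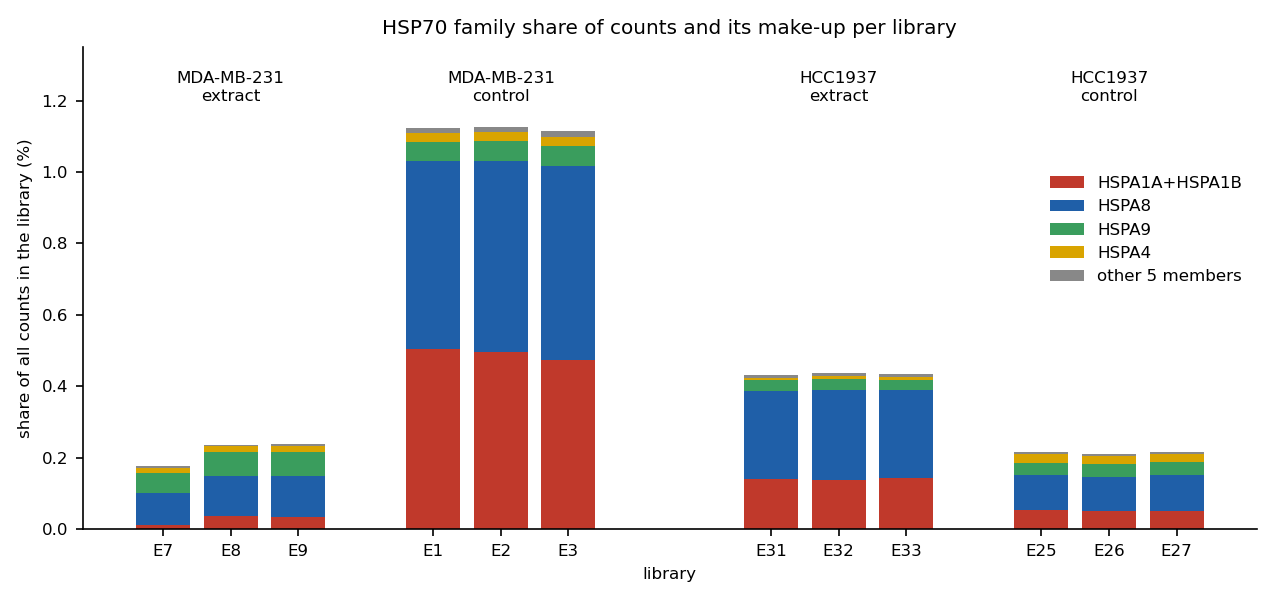
Share of all counts (%, vertical axis) taken by the HSP70 family in each of the 12 libraries (horizontal axis), stacked by gene with HSPA1A and HSPA1B summed. The family takes 0.175% to 0.238% in MDA-MB-231 extract libraries and 1.114% to 1.126% in their controls, and 0.431% to 0.436% in HCC1937 extract libraries and 0.211% to 0.217% in their controls.

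The make-up of the family shifted as well. The HSPA1A and HSPA1B pair held 7.17%, 15.3% and 14.4% of family counts in MDA-MB-231 extract libraries, against 44.8%, 44.0% and 42.5% in controls. In HCC1937 the pair held 32.8%, 31.3% and 33.1% in extract libraries, against 25.2%, 24.2% and 23.8% in controls. HSPA8 held 51.1%, 47.7% and 48.0% in extract and 46.8%, 47.4% and 48.8% in control libraries of MDA-MB-231, which overlap, and 56.2% to 58.0% in extract and 44.5% to 46.0% in control libraries of HCC1937, which do not. Mitochondrial HSPA9 took 28.2% to 31.1% of family counts in extract and 4.90% to 4.99% in control MDA-MB-231, and 6.96% to 7.05% in extract and 16.7% to 16.8% in control HCC1937.

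HSPA8, the constitutive cytosolic chaperone (chr11:123057489-123063230, minus strand, 9 exons), was the most abundant member per length in every group. It had 1176, 1142 and 1156 CPM in MDA-MB-231 extract libraries, against 4706, 4762 and 4857 CPM in controls. In HCC1937 it had 2882, 2971 and 2887 CPM in extract libraries, against 821.3, 821.6 and 859.2 CPM in controls. The groups did not overlap in either line and lay on opposite sides. The log2 fold change of extract over control was 1.80 ± 0.08 (3.49-fold higher) in HCC1937. It was -2.04 ± 0.08 (4.12-fold lower) in MDA-MB-231, or -2.05 without E7, a difference of 3.85 for HCC1937 minus MDA-MB-231. The ± of a log2 fold change is throughout an approximate SE, worked out from the F statistic.

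The summed HSPA1A and HSPA1B pair, the main stress-inducible HSP70, had 165.1, 367.1 and 346.3 CPM in MDA-MB-231 extract libraries, against 4504, 4414 and 4231 CPM in controls. In HCC1937 the pair had 1665, 1606 and 1703 CPM in extract libraries, against 464.3, 441.3 and 445 CPM in controls. E7 was the lowest of the MDA-MB-231 extract libraries, and all 3 stayed far under the controls. The log2 fold change was 1.88 ± 0.23 (3.68-fold higher) in HCC1937 and -3.90 ± 0.25 (14.96-fold lower) in MDA-MB-231, or -3.61 without E7, with a difference of 5.78 for HCC1937 minus MDA-MB-231. Relative to HSPA8 the pair stood at 0.140, 0.321 and 0.299 counts per count of HSPA8 in MDA-MB-231 extract libraries, against 0.957, 0.927 and 0.871 in controls. In HCC1937 this ratio was 0.578, 0.540 and 0.590 in extract libraries and 0.565, 0.537 and 0.518 in controls, ranges that overlap.

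Within the pair the lines assigned their reads to different genes. HSPA1A took 0.459%, 0.663% and 0.494% of the pair's counts in MDA-MB-231 extract libraries and 0.175%, 0.204% and 0.142% in controls, so nearly all of the pair's reads there were counted to HSPA1B. In HCC1937 it took 61.1%, 60.2% and 60.9% in extract libraries and 57.5%, 55.9% and 57.8% in controls. Taken alone, HSPA1A had 0.782, 2.42 and 1.70 CPM in MDA-MB-231 extract libraries, against 7.84, 9.04 and 5.98 CPM in controls (log2 fold change -2.13 ± 0.26, or -1.85 without E7). HSPA1B alone had 164.3, 364.6 and 344.6 CPM in extract libraries, against 4496, 4404 and 4225 CPM in controls (-3.91 ± 0.25, or -3.62 without E7). In HCC1937 HSPA1A had 1017, 967.1 and 1038 CPM in extract libraries, against 267.1, 246.9 and 257.2 CPM in controls (1.97 ± 0.20). HSPA1B had 648.2, 638.6 and 665.4 CPM in HCC1937 extract libraries, against 197.2, 194.5 and 187.8 CPM in controls (1.75 ± 0.23). Whether the share of HSPA1A reflects the transcripts or the division of shared reads was not tested.

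HSPA6, a strictly inducible HSP70 of human cells, had the widest span of the family. It had 10.95, 10.32 and 13.11 CPM in MDA-MB-231 extract libraries, against 79.83, 81.17 and 79.33 CPM in controls. In HCC1937 it had 44.81, 44 and 47.83 CPM in extract libraries, against 0.115, 0.0990 and 0 CPM in controls. Untreated MDA-MB-231 thus held this inducible transcript at a level that untreated HCC1937 lacked, and with extract the lines changed places. The 3 HCC1937 controls held 6 reads in all, with an exact Poisson 95% interval of 2.20 to 13.1 that covers counting error only. On the pooled control level of 0.0708 CPM the extract level was 644 times higher, with a counting interval of 296 to 1754. The fitted log2 fold change was 9.23 ± 0.27 in HCC1937 and -2.80 ± 0.15 (6.98-fold lower) in MDA-MB-231, or -2.78 without E7. The HCC1937 value rests on those few control reads and on the prior count of the fit. Its ± of 0.27 is narrower than the counting interval above and understates the uncertainty.

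**Figure D2:**
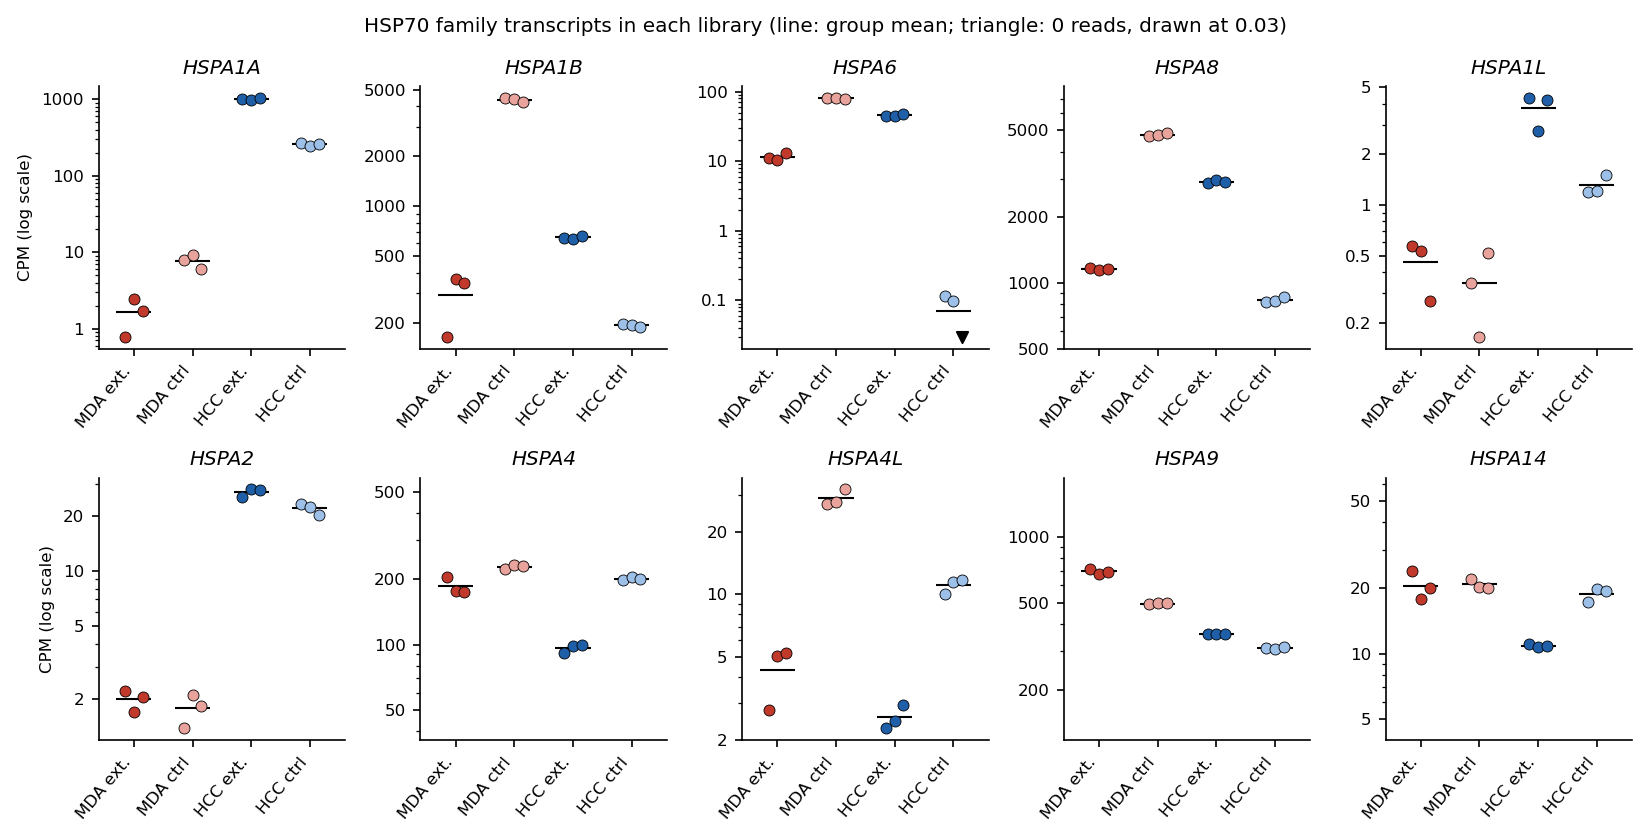
CPM of each HSP70 member (log axis, whose range differs between panels) in the 3 libraries of each group, with MDA for MDA-MB-231, HCC for HCC1937, ext. for extract and ctrl for control. Points are libraries and lines are group means. HSPA1A, HSPA1B, HSPA6 and HSPA8 lie under their controls in MDA-MB-231 and over them in HCC1937, and 1 HCC1937 control library has no HSPA6 read.

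HSPA4 and HSPA4L, members of the HSP110 branch that act mainly as nucleotide exchange factors for other HSP70 proteins, were lower with extract in both lines as counted. This did not hold with an offset for transcript length and GC content, under which HSPA4 was higher in MDA-MB-231 (0.41, called) and neither gene was called in HCC1937. HSPA4L (chr4:127781821-127840733) had 2.77, 5.03 and 5.23 CPM in MDA-MB-231 extract libraries, against 27.4, 27.9 and 31.99 CPM in controls. In HCC1937 it had 2.27, 2.45 and 2.94 CPM in extract libraries, against 10.0, 11.4 and 11.8 CPM in controls. Its log2 fold changes were -2.71 ± 0.19 in MDA-MB-231, or -2.50 without E7, and -2.11 ± 0.20 in HCC1937. HSPA4 (chr5:133051962-133106449) had 204.6, 176.1 and 173.7 CPM in MDA-MB-231 extract libraries, against 221.1, 232.5 and 228.9 CPM in controls, the smaller of its changes (-0.30 ± 0.08, or -0.37 without E7). It had 91.35, 98.85 and 98.98 CPM in HCC1937 extract libraries, against 198.2, 203.1 and 198.8 CPM in controls (-1.05 ± 0.08).

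HSPA9, the HSP70 of the mitochondrial matrix that pulls imported proteins inwards (chr5:138553756-138575724, minus strand), was higher with extract in both lines. It had 716.9, 676.1 and 692 CPM in MDA-MB-231 extract libraries, against 492.8, 497.1 and 495.9 CPM in controls (0.49 ± 0.07, or 0.47 without E7). In HCC1937 it had 358.5, 360.2 and 357.7 CPM in extract libraries, against 308.7, 306.3 and 313.3 CPM in controls (0.21 ± 0.07). Neither line had overlapping groups, and as counted the changes were smaller than those of HSPA8, the pair and HSPA6 in the same line.

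HSPA1L, HSPA2 and HSPA14 complete the family. HSPA1L, a form known mainly from testis and encoded beside HSPA1A on the opposite strand, had 4.33, 2.77 and 4.19 CPM in HCC1937 extract libraries, against 1.19, 1.22 and 1.51 CPM in controls (1.52 ± 0.30). It was at most 0.569 CPM in any MDA-MB-231 library, with overlapping groups. HSPA2, another form abundant in testis, had 25.3, 27.9 and 27.6 CPM in HCC1937 extract libraries, against 23.4, 22.4 and 20.3 CPM in controls (0.29 ± 0.12). In MDA-MB-231 it had 1.69 to 2.20 CPM in extract and 1.38 to 2.09 CPM in control libraries, which overlap. HSPA14, a ribosome-associated member, had 11.05, 10.77 and 10.79 CPM in HCC1937 extract libraries, against 17.3, 19.8 and 19.3 CPM in controls (-0.79 ± 0.11). It did not separate the groups in MDA-MB-231, with 17.8 to 23.9 CPM in extract and 20.0 to 22.0 CPM in control libraries (-0.02 ± 0.11). In that line the log2 values without E7 were 0.23 for HSPA1L, 0.09 for HSPA2 and -0.14 for HSPA14, none of them called.

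Counted over the family in MDA-MB-231, 1 member was called higher (HSPA9), 6 lower (HSPA1A, HSPA1B, HSPA4, HSPA4L, HSPA6 and HSPA8) and 3 did not pass an adjusted p of 0.05. Of all genes tested there, 33% were called higher and 32.8% lower, 65.8% in all. In HCC1937, 7 members were called higher (HSPA1A, HSPA1B, HSPA1L, HSPA2, HSPA6, HSPA8 and HSPA9) and 3 lower (HSPA4, HSPA4L and HSPA14), where 32.7% of all genes tested were higher and 39.1% lower, 71.8% in all. The members' median log2 fold change in MDA-MB-231 was -1.17, beside 0 over all genes tested, and their median in HCC1937 was 0.91, beside -0.16. All 3 extract libraries lay below all 3 controls in MDA-MB-231 and above them in HCC1937 for HSPA1A, HSPA1B, HSPA6 and HSPA8, a pattern that 321 of all genes tested (2.27%) had. The converse pattern was shown by no member and by 3.25% of genes. Taken line by line, 1 member lay above and 6 lay below all controls in MDA-MB-231, beside 32.5% and 35.2% of all genes tested, and 7 lay above and 3 below in HCC1937, beside 38.3% and 43.8%. Since the family was chosen for these contrasts, nothing is read from the counts. In the same fit the difference between the lines was called higher in HCC1937 for those 4 members and lower for HSPA4, HSPA9 and HSPA14. Of all genes tested, 11.5% and 20.6% were called in these directions, 32.1% in all. The family was chosen for opposite directions in the lines, so nothing is read from these calls either. The difference for HSPA9 was small (-0.28) and lost its call under 14 of 17 alternatives, and the call of HSPA2 in HCC1937 was lost under 7 of 18.

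The members' transcripts differ widely in length and GC content, so each fold change is also given with an offset for both. The cytosolic members that parted the lines have short transcripts (HSPA1A 2483 nt and 59.7% GC, HSPA1B 2521 nt and 58.7%, HSPA6 2371 nt and 58.4%, HSPA8 2463 nt and 47.0%). Equally short are HSPA14 (1904 nt and 43.1%), HSPA1L (2544 nt and 49.7%) and HSPA2 (2767 nt and 56.1%), which were not called in opposite directions. HSPA4L has 10790 nt with 38.1% GC, HSPA4 4825 nt with 42.5% and HSPA9 4727 nt with 43.5%. Length alone thus does not divide the members by direction. With this offset the pair in MDA-MB-231 stood at a log2 fold change of -4.49 (-2.70 for HSPA1A and -4.49 for HSPA1B singly), HSPA6 at -3.41 and HSPA8 at -2.28. In HCC1937 they were 1.03 for the pair (1.105 for HSPA1A and 0.90 for HSPA1B), 8.37 for HSPA6 and 1.68 for HSPA8, so the directions stayed opposite with the offset and the pair's value in HCC1937 was smaller. HSPA9 was at 1.04 in MDA-MB-231 and, close to the pair, at 1.00 in HCC1937. HSPA4L was at -0.74 in MDA-MB-231 and, no longer called, at -0.04 in HCC1937. HSPA4 turned to 0.41 in MDA-MB-231 and was at -0.08, without a call, in HCC1937. HSPA2 turned to -0.48 in HCC1937, whereas HSPA1L (1.12) and HSPA14 (-0.52) kept their directions there. In MDA-MB-231 these 3 stayed without a call, at -0.37 for HSPA2, -0.03 for HSPA1L and -0.05 for HSPA14.

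**Figure D3:**
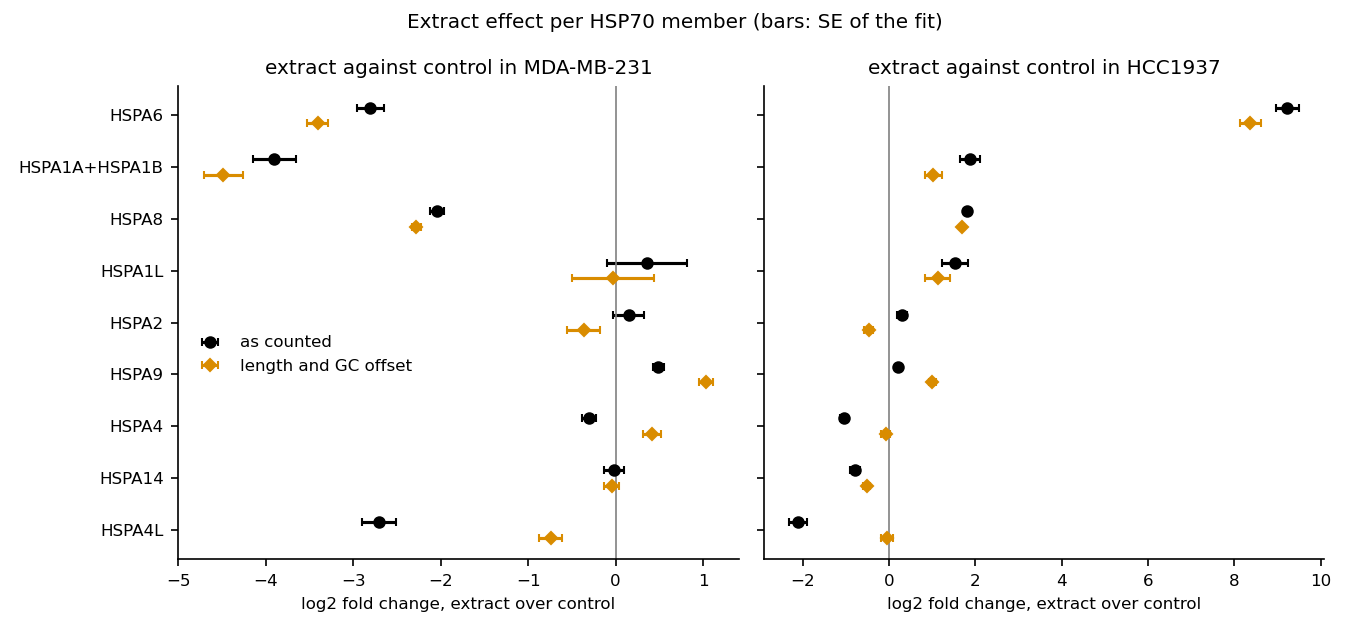
Log2 fold change of extract over control (horizontal axis) for each HSP70 member in MDA-MB-231 (left) and HCC1937 (right), as counted (black circles) and with the length and GC offset (orange diamonds), with bars for the approximate SE from the F statistic and with axis ranges that differ between panels. The bar of HSPA6 as counted in HCC1937 understates the counting error of its few control reads. HSPA6, the pair and HSPA8 lie left of 0 in MDA-MB-231 and right of 0 in HCC1937 both ways, while HSPA4L in HCC1937 is at -0.04 with the offset and at -2.11 as counted.

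Ordered by CPM per kb of transcript, HSPA8 came first in every group, at 470 ± 6.85 in extract-treated and 1939 ± 31.2 in control MDA-MB-231, and at 1183 ± 20.4 in extract-treated and 339 ± 8.84 in control HCC1937 (SD, n = 3). The pair came second in 3 groups, at 1752 ± 55.6 CPM per kb in MDA-MB-231 controls, 663 ± 19.6 in extract-treated HCC1937 and 180 ± 4.93 in HCC1937 controls. In extract-treated MDA-MB-231 HSPA9 (147 ± 4.35) and the pair (117 ± 44.4) had overlapping libraries behind HSPA8. HSPA6 stood at 4.83 ± 0.616 in extract-treated and 33.8 ± 0.400 in control MDA-MB-231. In extract-treated HCC1937 it stood at 19.2 ± 0.852 CPM per kb, level with HSPA4 at 20.0 ± 0.905, and in HCC1937 controls it was the last of the family at 0.0301. The last place was held by HSPA1L in MDA-MB-231, at 0.180 ± 0.0649 with extract and 0.135 ± 0.0694 without. These 2 pairs in extract-treated cells were the only neighbours in the orders of the 4 groups whose libraries overlapped. The length of each gene was that of its longest RefSeq-linked protein-coding transcript, and the order can depend on that choice. For HSPA9 this transcript has 4727 nt, of which 2040 are coding, and for HSPA4L 10790 nt, of which 2520 are coding.

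Untreated HCC1937 against untreated MDA-MB-231 compares the starting levels of the family. HSPA8 was 5.73-fold lower in HCC1937 controls (log2 fold change -2.52 ± 0.08) and the pair 9.74-fold lower (-3.28 ± 0.24). HSPA1A alone was higher (5.08 ± 0.24) and HSPA1B alone lower (-4.50 ± 0.26). HSPA6 was at a pooled 0.0708 CPM in HCC1937 controls, against 80.1 CPM in MDA-MB-231 controls, which is 1132 times as much with a counting interval of 520 to 3085. No p is given for these genes, since their choice rests on contrasts that use the same controls. Of the members not chosen for a direction, HSPA2 was higher in HCC1937 controls at 22.0 CPM, against 1.77 CPM in MDA-MB-231 controls (3.64 ± 0.15, edgeR adjusted p = 1.13e-09), and so was HSPA1L (1.89 ± 0.39, adjusted p = 0.000883). HSPA4L (-1.39 ± 0.18, adjusted p = 1.76e-05) and HSPA9 (-0.68 ± 0.07, adjusted p = 1.75e-06) were lower. HSPA4 (-0.19 ± 0.08, adjusted p = 0.0511) and HSPA14 (-0.14 ± 0.11, adjusted p = 0.268) did not pass. These p-values use the same control libraries as the contrasts known when the family was chosen. They are therefore not free of that choice. In all 3 members were called higher (HSPA1A, HSPA1L and HSPA2) and 5 lower (HSPA1B, HSPA4L, HSPA6, HSPA8 and HSPA9). Of all genes tested, 38.7% were higher and 36.7% lower, 75.3% in all, so that the family's count lies near this background. The count takes HSPA1A and HSPA1B singly, although their shared reads were divided and their sum was lower. It also includes the members left without a p above, and nothing is read from it. Between extract-treated HCC1937 and extract-treated MDA-MB-231 the log2 fold change was 1.33 for HSPA8, 1.99 for HSPA6 and 2.50 for the pair, on the other side of 0 from the controls, and -0.95 for HSPA9. Without E7 these were 1.32, 1.95, 2.20 and -0.95.

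The partners of the HSP70 cycle, 69 genes in 7 overlapping lists, moved in both directions. In MDA-MB-231, 23 rose, 24 fell and 22 did not pass (median log2 fold change 0.12). In HCC1937, 30 rose, 19 fell and 20 did not pass (median 0.26). Of all genes tested, 33% rose and 32.8% fell in MDA-MB-231 (median 0), and 32.7% rose and 39.1% fell in HCC1937 (median -0.16). These shares are the background for the counts of each list below, and nothing is read from those counts. With the offset 33 rose and 27 fell in MDA-MB-231 and 40 rose and 15 fell in HCC1937, and the share over all genes under the offset is not given here. Without E7, of 14360 genes tested, 5363 rose and 5349 fell in MDA-MB-231. In HCC1937 5471 rose and 6215 fell without it. In both lines together 17 rose in each and 16 fell in each, that is 24.6% and 23.2% of the partners beside 24.3% and 25.3% of all genes tested. In all 4 partners, among them DNAJB1, BAG3 and SERPINH1, fell in MDA-MB-231 and rose in HCC1937, which is 5.80% of the partners beside 1.58% of all genes tested. BAG2 was the 1 partner that rose in MDA-MB-231 and fell in HCC1937, as 2.31% of all genes tested did. BAG2 was chosen after its value was seen, for this count. The lists were chosen with earlier results of these data known, and the other named partners by their p. The p-values below are therefore not free of that choice.

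Among 16 J-domain co-chaperones, 3 rose, 8 fell and 5 did not pass in MDA-MB-231, and 8 rose, 6 fell and 2 did not pass in HCC1937. With the offset 5 rose and 9 fell in MDA-MB-231. DNAJB1, the stress-inducible J-domain partner of cytosolic HSP70, averaged 233 ± 28.4 CPM in extract-treated and 1827 ± 38.2 CPM in control MDA-MB-231 (SD, n = 3). It averaged 645 ± 12.8 CPM in extract-treated and 240 ± 6.43 CPM in control HCC1937. Its log2 fold change was 1.43 ± 0.09 (edgeR adjusted p = 8.2e-08) in HCC1937 and -2.97 ± 0.10 (adjusted p = 9.66e-10) in MDA-MB-231, and the difference, HCC1937 minus MDA-MB-231, was 4.40 ± 0.14 (adjusted p = 2.61e-09). With the offset DNAJB1 was at 0.70 in HCC1937 and -3.54 in MDA-MB-231. DNAJB4, a close relative of DNAJB1, fell in both lines (-3.32 in MDA-MB-231 and -2.21 in HCC1937, or -1.92 and -0.41 with the offset), as did DNAJB14 (-2.64 in MDA-MB-231 and -2.78 in HCC1937, or -0.57 and -0.53). DNAJC10, a J-domain protein and disulfide reductase of the endoplasmic reticulum, fell by 2.06 in MDA-MB-231 and by 2.01 in HCC1937 on the log2 scale, but with the offset was at 0.14 and 0.32 in that order. Without E7 the values in MDA-MB-231 were -2.87 for DNAJB1, -3.34 for DNAJB4, -2.71 for DNAJB14 and -1.98 for DNAJC10.

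**Figure D4:**
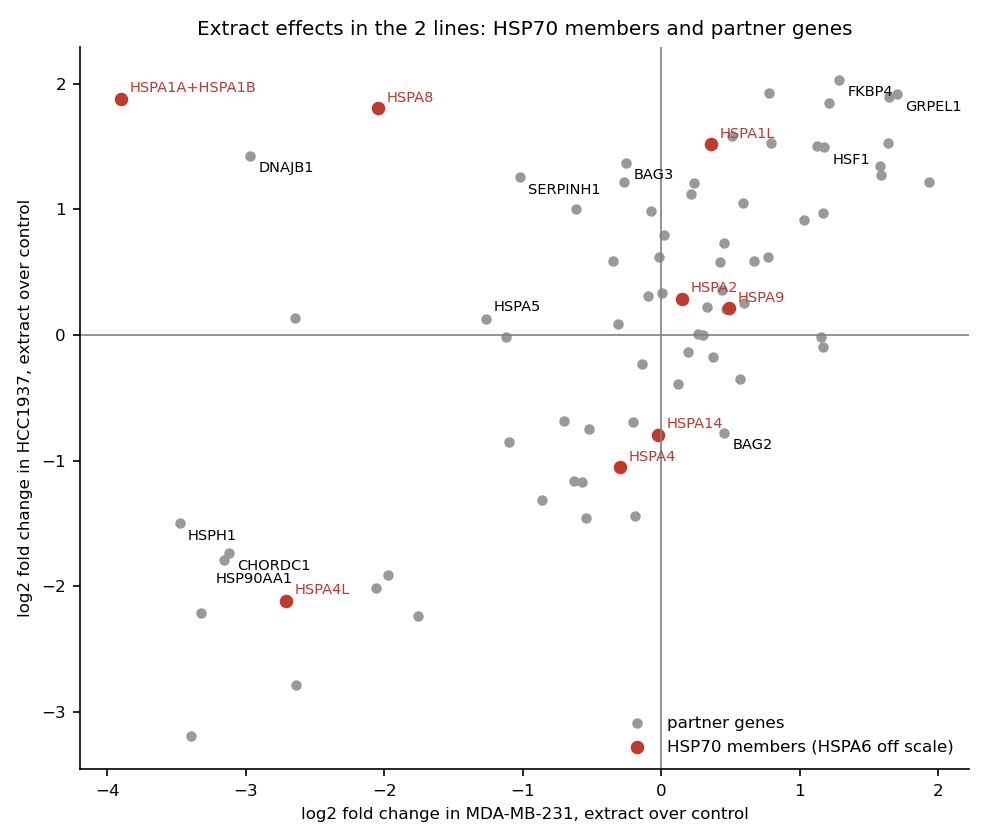
Log2 fold change of extract over control in MDA-MB-231 (horizontal axis) and in HCC1937 (vertical axis) for 69 partner genes (grey points, some named) and for the HSP70 members (red points, HSPA6 outside the range). The upper left corner holds the pair, HSPA8, DNAJB1, SERPINH1 and BAG3, and the lower left holds HSPA4L with HSPH1, HSP90AA1 and CHORDC1.

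Of 9 nucleotide exchange factors, 5 rose, 2 fell and 2 did not pass in MDA-MB-231, and 4 rose, 3 fell and 2 did not pass in HCC1937. With the offset 8 rose and 1 fell in MDA-MB-231, and 6 rose and none fell in HCC1937. BAG3, which links HSP70 to selective autophagy, averaged 152 ± 5.70 CPM in extract-treated and 182 ± 5.73 CPM in control MDA-MB-231 (-0.26 ± 0.07, edgeR adjusted p = 0.00453). In HCC1937 it averaged 183 ± 1.78 CPM with extract and 70.9 ± 1.66 CPM without (1.37 ± 0.07, adjusted p = 8.37e-09). With the offset BAG3 was at -0.80 in MDA-MB-231 and 0.55 in HCC1937. BAG1, an exchange factor that links HSP70 to the proteasome, rose in MDA-MB-231 (1.17, adjusted p = 1.14e-05) and was at -0.10 in HCC1937 (adjusted p = 0.512). The mitochondrial exchange factor GRPEL1, which serves HSPA9, rose in both lines (1.70 in MDA-MB-231 and 1.91 in HCC1937, or 1.49 without E7 in MDA-MB-231). Its paralogue GRPEL2 fell in HCC1937 (-1.44) and was at -0.19 in MDA-MB-231 (adjusted p = 0.0958), and under the offset stood at 0.86 in MDA-MB-231 and 0.00089 in HCC1937. Of 12 mitochondrial partners, 6 rose, 1 fell and 5 did not pass in each line. With the offset 8 rose and 2 fell in MDA-MB-231 and 7 rose and 2 fell in HCC1937, and without E7 6 rose and 2 fell in MDA-MB-231 and 8 rose and 3 fell in HCC1937. TIMM44, which tethers HSPA9 to the import channel, rose by 1.59 in MDA-MB-231 and by 1.27 in HCC1937 (0.88 and 0.32 with the offset), whereas the mitochondrial chaperonin HSPD1 fell in MDA-MB-231 (-1.12) and was at -0.02 in HCC1937 (adjusted p = 0.822, or 0.22 with the offset, called). Without E7 the values in MDA-MB-231 were -0.26 for BAG3, 1.00 for BAG1, -0.17 for GRPEL2, 1.51 for TIMM44 and -1.12 for HSPD1.

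Of 6 HSP70-related genes outside the 10 members, none rose, 3 fell and 3 did not pass in MDA-MB-231, and 1 rose, 2 fell and 3 did not pass in HCC1937. These counts changed with the offset, for which no share over all genes is given, to 2 up and 2 down in MDA-MB-231 and 4 up and none down in HCC1937. Without E7 they were 2 up and 3 down in MDA-MB-231 and 3 up and 2 down in HCC1937. HSPH1, the stress-inducible HSP110, fell to 47.0 ± 3.30 CPM in extract-treated MDA-MB-231, against 524 ± 15.7 CPM in controls (-3.48 ± 0.09, edgeR adjusted p = 2.91e-10). It fell in HCC1937 too (-1.50 ± 0.08, adjusted p = 1.53e-08), though with the offset that value was -0.04 (adjusted p = 0.504). HSPA5, the HSP70 of the endoplasmic reticulum, fell to 878 ± 160 CPM in extract-treated MDA-MB-231, against 2116 ± 13.02 CPM in controls (-1.27, adjusted p = 2.17e-06), and was at 0.12 in HCC1937 (adjusted p = 0.36). In HCC1937 HSPA5 was called higher with the offset (0.39, edgeR adjusted p = 0.000166), in a fit of that line alone (0.18, adjusted p = 5.24e-07) and without E7 (0.15, adjusted p = 7.34e-06). HSPA13, a microsomal member, fell in both lines (-0.57 in MDA-MB-231 and -1.17 in HCC1937) and turned with the offset to 0.94 and 0.68 in the same lines. Without E7 the values in MDA-MB-231 were -3.42 for HSPH1, -1.12 for HSPA5 and -0.52 for HSPA13.

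Of 12 adaptors and ubiquitin partners, 7 rose, 2 fell and 3 did not pass in MDA-MB-231, and 5 rose, 2 fell and 5 did not pass in HCC1937, where 10 rose and 1 fell with the offset. STIP1, which joins HSP70 to HSP90, rose in both (0.79 in MDA-MB-231 and 1.53 in HCC1937, or 0.30 and 0.79 with the offset), as did the HSP90 co-chaperone FKBP4 (1.28 in MDA-MB-231 and 2.03 in HCC1937). CHORDC1, a heat-inducible HSP90 co-chaperone, fell in both (-3.12 in MDA-MB-231 and -1.73 in HCC1937, or -2.39 and -0.51 with the offset). Of 10 other heat shock proteins, 1 rose, 5 fell and 4 did not pass in MDA-MB-231, and 5 rose, 1 fell and 4 did not pass in HCC1937. With the offset 1 rose and 9 fell in MDA-MB-231, and 4 rose and 3 fell in HCC1937. HSP90AA1, the inducible cytosolic HSP90, fell in both lines (-3.16 in MDA-MB-231 and -1.79 in HCC1937). SERPINH1, the collagen chaperone HSP47, was at -1.02 in MDA-MB-231 (adjusted p = 4.34e-07) and 1.26 in HCC1937 (adjusted p = 6.08e-08), or -1.66 and 0.36 with the offset. Without E7 the values in MDA-MB-231 were 0.79 for STIP1, 1.18 for FKBP4, -3.11 for CHORDC1, -3.16 for HSP90AA1 and -0.95 for SERPINH1.

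Of 9 heat shock factors and regulators, 3 rose, 4 fell and 2 did not pass in MDA-MB-231, and 3 rose, 5 fell and 1 did not pass in HCC1937. The transcript of HSF1, the main activator of inducible HSP70 genes, rose in both lines. It averaged 271 ± 36.7 CPM in extract-treated and 120 ± 0.718 CPM in control MDA-MB-231 (1.17 ± 0.09, edgeR adjusted p = 5.52e-07), and 717 ± 9.11 CPM in extract-treated and 255 ± 9.93 CPM in control HCC1937 (1.49 ± 0.09, adjusted p = 5.7e-08). The HSF1 effects differed by 0.32 between the lines, which did not pass in the fit of all libraries (adjusted p = 0.0852). The difference passed without E7 (0.45, edgeR adjusted p = 2.86e-08), with other size factors (0.43, adjusted p = 0.0342) and in DESeq2 (0.43, adjusted p = 0.00697). With the offset HSF1 was at 0.43 in MDA-MB-231 and 0.57 in HCC1937, both still called. HSF4, a factor known from the lens, fell in both (-1.75 in MDA-MB-231 and -2.23 in HCC1937, or -2.65 and -3.33 with the offset). Without E7 the values in MDA-MB-231 were 1.07 for HSF1 and -1.84 for HSF4. HSF1 is controlled largely at the protein level, which was not measured.

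The genes whose levels followed HSPA6, HSPA8 and HSPA1A most closely were named by Pearson's r of log2 CPM over the 12 libraries, which fall into 4 groups, so that r describes mostly the group means. For HSPA6 they included BAG3 (r = 0.987) and STMN3, a stathmin (0.982). For HSPA8 they were JUNB of the AP-1 factors (0.983), DNAJB1 (0.962) and SERPINH1 (0.960). HSPA1A, whose level mainly tells the lines apart, was followed by ITGB4, the integrin β4 chain (0.999), the forkhead factor FOXQ1 (0.996) and the adhesion receptor ADGRG1 (0.996). These r values rest on HSPA1A alone, and so on how the pair's reads were divided, and do not describe the pair. ITGB4 averaged 46.3 CPM in MDA-MB-231 controls and 307 CPM in HCC1937 controls, whereas the pair averaged 4383 and 450 CPM in that order. All r values above were computed without the length and GC offset. With it, JUNB in HCC1937 went from a log2 fold change of 0.90 to -0.10 (edgeR adjusted p = 0.468), beside 1.68 for HSPA8. FOXQ1 went from 0.86 to -0.04 (adjusted p = 0.788) there, and ADGRG1 from 0.61 to 0.0499 (adjusted p = 0.431). ITGB4 (0.85), STMN3 (0.24), BAG3, DNAJB1 and SERPINH1 were still called higher there. In MDA-MB-231 all of these genes stayed lower with the offset.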

How the data were processed

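Per the submitters' processing notes, reads were checked with FastQC 0.12.1, trimmed with fastp 0.23.4 and quantified with Salmon 1.10.3 on GRCh38, with DESeq2 and R 4.4.1 also named. The labels name a stranded kit for total RNA beside capture on poly-T beads. The strand setting of the counting is not given in the sources used here, nor is the index annotation. Values deposited by the authors are expected counts per gene, without scaling. Of these, 52.8% were not whole and all were rounded.

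Counts were analysed with edgeR 4.0.16 in R 4.3.3: of 19516 genes with a symbol, filterByExpr kept 14133. After TMM scaling, 1 model with 4 groups was fitted to 12 libraries and contrasts went through the quasi-likelihood F test, with Benjamini-Hochberg adjustment over all genes tested and a threshold of 0.05. TMM takes most genes as unchanged, whereas 65.8% of genes tested were called in MDA-MB-231 and 71.8% in HCC1937. Changes are relative to other genes of a library, and small ones depend most on the scaling. In HCC1937 the median log2 fold change over all genes tested was -0.16 with TMM and -0.06 with other size factors. CPM carry the SD over 3 libraries. Log2 fold changes carry an approximate SE, the absolute log2 fold change divided by the square root of its F statistic. In bulk samples, fewer cells of a kind and less RNA per cell cannot be told apart.

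The length and GC offset is a smooth surface per library (mgcv 1.9.3) over the longest RefSeq-linked protein-coding transcript in GENCODE, for 14046 genes (99.4%). The fits were also run on simulated data in which only a small share of genes changed and the length and GC bias came from the same surface. That run cannot show how the fits behave here, where most genes tested were called. Named genes are the members, the 2 partners of each list with the smallest p in each line, and the 3 genes with the highest r to HSPA1A, HSPA6 and HSPA8; some genes that this rule names are not reported here. Members and lists were chosen with earlier results of these data known. The cell line tag of 10 of 12 samples differs from the line in the title, and titles were used.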

Additional observations from a re-analysis of the deposited data

Results flagged for a closer look

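For 4 members every library moved one way in MDA-MB-231 and the other way in HCC1937. The log2 effect in HCC1937 minus that in MDA-MB-231 was 4.11 for HSPA1A, 5.66 for HSPA1B, 12.0 for HSPA6 and 3.85 for HSPA8. HSPA1A and HSPA1B share reads, and their sum gave 5.78. The value for HSPA6 rests on 6 reads in the HCC1937 controls, and that for HSPA1A on low levels in MDA-MB-231. These members were chosen for this pattern, so the differences are a description and no p is given for them.

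Of the 69 partner genes, the difference between the lines was called higher in HCC1937 for 21 and lower for 9, and 39 did not pass. Over all genes tested 11.5% were called higher and 20.6% lower. The lists were chosen with earlier results of these data known and the named genes by their p. For the named partners that follow, the difference between the lines passed the edgeR quasi-likelihood test. It was above 0, that is higher in HCC1937, for DNAJB1 (4.40), SERPINH1 (2.28), HSPH1 (1.98), BAG3 (1.63), HSPA5 (1.39), CHORDC1 (1.39), HSP90AA1 (1.36), DNAJB4 (1.11), HSPD1 (1.103), FKBP4 (0.75) and STIP1 (0.74). It was below 0 for BAG1 (-1.27), GRPEL2 (-1.25), HSPA13 (-0.60) and HSF4 (-0.48). The call for HSF4 (adjusted p = 0.0474) was lost under 14 settings, among them other size factors (-0.37, adjusted p = 0.13), DESeq2 (-0.35, adjusted p = 0.126) and without E7 (-0.37, adjusted p = 0.0874), and that for HSPA13 was lost with the offset (-0.26, adjusted p = 0.113). For HSPH1, CHORDC1, HSP90AA1 and DNAJB4 the value describes a smaller fall in HCC1937, since these genes fell in both lines.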

How the results depend on the processing

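Results were recomputed with other size factors, DESeq2 1.42.0, no filter on low counts, the length and GC offset, each line alone, the pair summed, and without each library. Counts over all genes, over the members and over all partners kept within 1.5 times of their values except as follows, while counts within single partner lists moved by more with the offset and without E7, as given beside them. With the length and GC offset, 2 members were called higher in MDA-MB-231 in place of 1, and 14 partners lower for the difference between the lines in place of 9. Leaving out 1 library at a time, the difference between the lines had 1340 to 3554 genes higher (1630 with all), 2344 to 4780 genes lower (2909 with all), 18 to 32 partners higher (21 with all) and 7 to 17 lower (9 with all), each highest without E7. With the offset, HSPA4 in MDA-MB-231 (0.41, or 0.25 also without E7) and HSPA2 in HCC1937 (-0.48, or -0.47 also without E7) turned, and the difference between the lines for HSPA9 turned with the offset and without E7 (0.078). Partners that turned with the offset were HSPA13 (0.94 in MDA-MB-231 and 0.68 in HCC1937), DNAJC10 (0.14 and 0.32), GRPEL2 (0.86 and 0.00089) and HSPD1 in HCC1937 (0.22, and 0.0743 by DESeq2). The differences between the lines for GRPEL1 (0.45) and TIMM44 (-0.21) passed without E7 only, or for TIMM44 also with the offset (-0.56). The offset by construction removes what length and GC share with the fold changes; other causes were not tested. The difference for HSPA9 lost its call under 14 of its 17 settings, and HSPA4 between the controls (-0.19) passed under 9 of 17, among them DESeq2 (-0.26).

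The offset joined with leaving out E7, with the summed pair, and the summed pair without E7 were added after seeing the data. No paired analysis was possible because the groups share no library numbers. Depth limits HSPA6 in HCC1937 controls, HSPA1A in MDA-MB-231 and HSPA1L.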
